A study of Schizosaccharomyces pombe with 6 samples.

Results

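The genes described here lie at the ends of chromosome I of the fission yeast *Schizosaccharomyces pombe*. Their systematic names start with the name of the cosmid, a cloned piece of the genome, in which they were first sequenced, and the members are all genes of the count table named after the terminal cosmids SPAC212, SPAC977, SPAC11D3 and SPAC5H10 at the left end and SPAC922, SPAC869, SPAC186 and SPAC750 at the right end. SPAC186.01 (*pfl9*) was left out. The rule used names only, no measured value, and gave 94 of the 7268 genes in the table, 61 at the left end and 33 at the right end. The ASM294v3 annotation placed all 94 on chromosome I, within 71 coding genes of the left end and 34 coding genes of the right end, and 5 of them are pseudogenes. Between SPAC977 and SPAC11D3 lie genes of other clones that are not members.

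RNA was sequenced from 3 strains, with 2 biological replicates each: WT (strain 972), a *saf5* deletion and a *cwf12* deletion. All cultures were untreated and grew in YE5S, a rich medium, at 30 °C to an OD600 of 0.5. Saf5, the fission yeast relative of human ICLN, takes part in making the snRNPs of the spliceosome, and Cwf12, called Isy1 in budding yeast, belongs to the Prp19-associated complex of the spliceosome. The study asks how each factor shapes splicing and transcript levels. Whether the replicates of a deletion came from 1 clone is not given in the sources used here. Each genotype stands for 1 strain in the labels, so the deletion and any other difference between the strains cannot be told apart.

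Chromosome ends of fission yeast carry telomere repeats and, next to them, long stretches of sequence shared between ends, where heterochromatin with methylated histone H3 keeps many genes at low levels. The outermost genes encode RecQ type helicases, and further in lie families of transporters, cell surface glycoproteins and metabolic enzymes, many of which are used in stress or nitrogen starvation. The members showed 2 features of such regions that their names do not carry. Of the 89 protein-coding members, 34 (38.2%) had a mean under 1 CPM (reads scaled to library size, with TMM factors) in WT, against 204 of all 5106 protein-coding genes in the table. Introns were rare among them, with 11 of 89 (12.4%) having an intron in the coding sequence against 46.8% of all protein-coding genes. At the left end, 15 of 18 protein-coding members from *tlh1* to *plb4* were under 1 CPM in WT, against 0 of 38 from *nhe1* inwards. Introns went the other way there, with 33.3% of the outer group against 5.26% of the inner. At the right end 19 of 33 (57.6%) were under 1 CPM. Many outer genes have copies, described next, and the part of these in the low counts was not tested.

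Many members have near-identical copies elsewhere. Every stretch of 100 bases of each gene was looked up in the ASM294v3 genome, and 61 of the 94 members consisted only of stretches found at a single place, while in 29 members fewer than 50% of the stretches were. At the left end the 22 genes from *tlh1* to *plb4* had a median of 10.05% of such unique stretches, whereas 36 of the 39 genes further in were fully unique. At the right end the 6 genes from SPAC186.04c to *pdc102* were fully unique, and 7 of the 8 SPAC750 genes were under 50%. How reads that fit several copies were counted is not given in the sources used here, so counts of members with copies are uncertain.

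**Figure D1:**
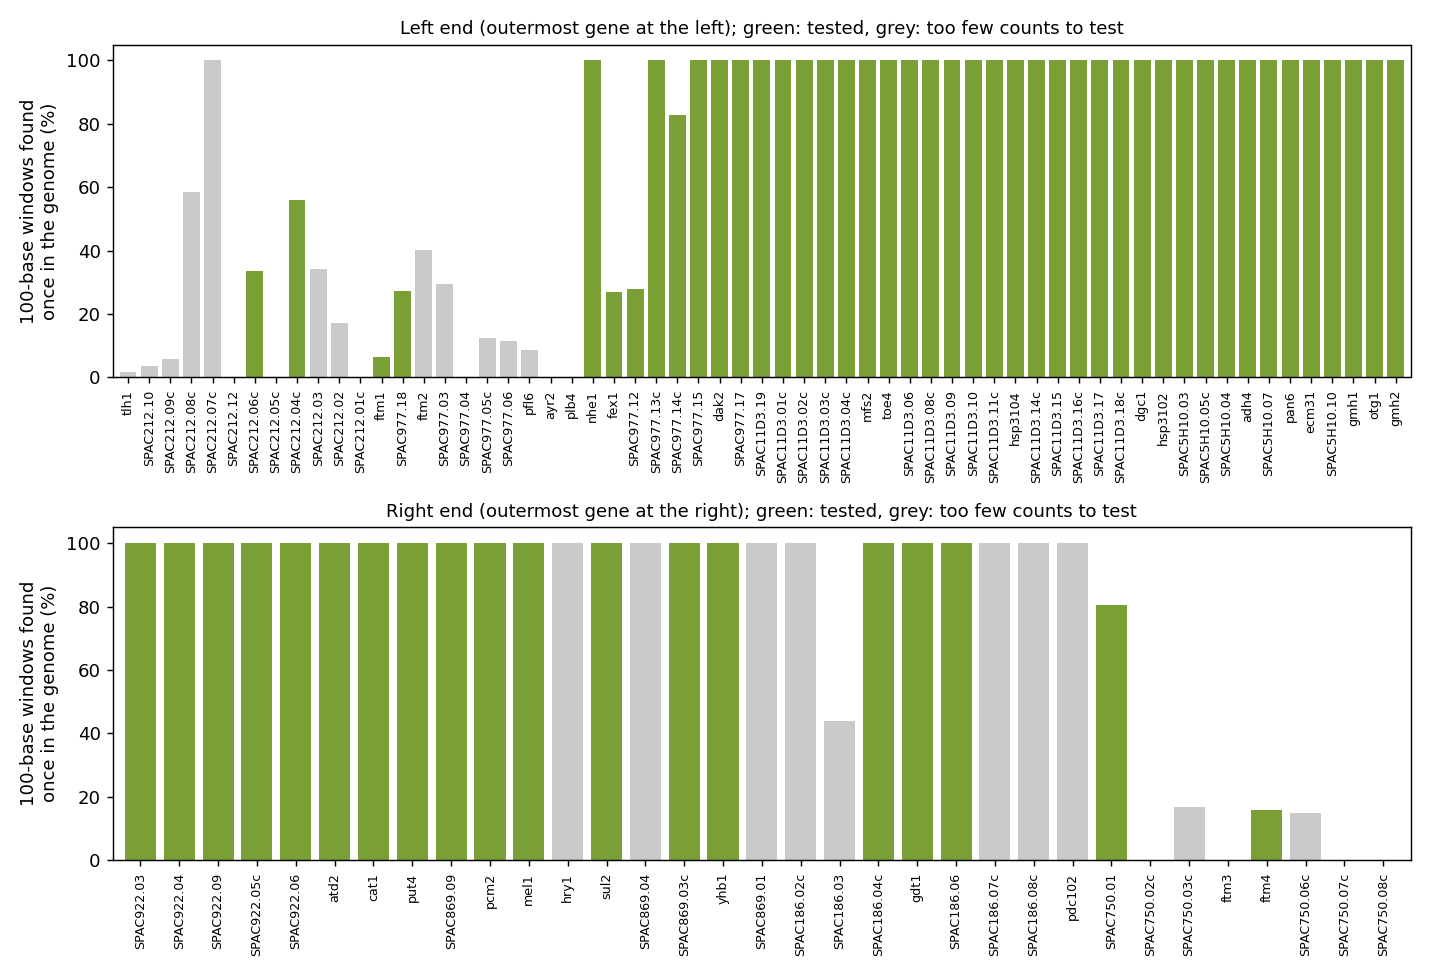
Share of the 100-base stretches of each member that occur at a single place in the ASM294v3 genome (y axis, percent), in chromosome order, with the left end in the upper panel and the right end in the lower panel. Low bars mark genes with copies: the outer 22 genes of the left end, *fex1*, SPAC977.12, SPAC186.03 and 7 of the 8 SPAC750 genes fall mostly under 50%, while the inner genes stand at 100%.

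*tlh1*, the outermost gene of the left end, differed from *tlh2* at an end of chromosome II at 1 of 5662 bases. The coding stretches around that base (ASM294v3, chrI:5330-5390, minus strand, and chrII:4527157-4527217, plus strand) are shown because they are the only place in these 5662 bases where a read could tell the copies apart, and the capital marks the base that differs:
tlh1: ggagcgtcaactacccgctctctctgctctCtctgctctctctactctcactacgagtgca
tlh2: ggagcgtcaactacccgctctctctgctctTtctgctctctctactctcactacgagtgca

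The libraries held from 9113139 to 12054198 counts, and the members took from 0.374% to 0.489% of them. Counts on *cwf12* fell in *Δcwf12*, from 556 and 531 in WT to 41 and 32 (log2 fold change -4.08, edgeR adjusted p = 1.0e-09). Counts on *saf5* went against the labels: the libraries labelled *Δsaf5* held 220 and 249 against 323 and 234 in WT (-0.33, adjusted p = 0.090), so *Δsaf5* below means the libraries labelled so. Of 6 genes that mark M cells, 3 were higher in *Δsaf5*, and in *Δcwf12* 1 was higher while *mfm2*, which encodes an M pheromone, fell from 92 and 92 counts to 7 and 12. Of 3 genes that mark P cells, 1 was higher in *Δsaf5* and none was called in *Δcwf12*, none of the 9 markers was at 0 in any library, and the summed P level ran from 23.9 to 36.3 CPM. The part of mating type or strain background in the results below was not tested. These are bulk samples, in which fewer cells with a transcript and less of it per cell cannot be told apart.

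Of the 94 members, 62 had enough counts to be tested, 43 at the left end and 19 at the right end. The other 32 held at most 18 counts in any library, and 7 of them held 0 in all 6. Calls needed an adjusted p under 0.05 in edgeR's quasi-likelihood test over all 6018 genes tested and a difference of 2-fold or more, which is 1 on the log2 scale. In *Δsaf5* against WT, 12 of the 62 (19.4%) were higher and 7 (11.3%) were lower, beside 6.2% and 2.49% of all genes tested. In *Δcwf12* against WT, 14 (22.6%) were higher and 12 (19.4%) lower, beside 7.31% and 2.64%. Compared directly, 11 members stood higher in *Δsaf5* and 14 in *Δcwf12*, beside 3.95% and 4.62% of all genes tested. Members moved in both directions, and their median log2 fold changes stayed near those of all genes tested, at -0.05 against 0.02 for *Δsaf5* and 0.11 against -0.005 for *Δcwf12*. Of the 62, 9 reached the count filter through 1 strain only (5 through *Δsaf5*, 4 through WT) and had to differ, so the shares of members called carry no support. Among the 51 members that reached 10 counts in all 6 libraries, 5 were higher and 3 lower in *Δsaf5*, and 12 were higher and 8 lower in *Δcwf12*. The shares of all genes under that filter were not taken, so these counts cannot be set against a background. The deletions are compared with the same WT libraries.

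**Figure D2:**
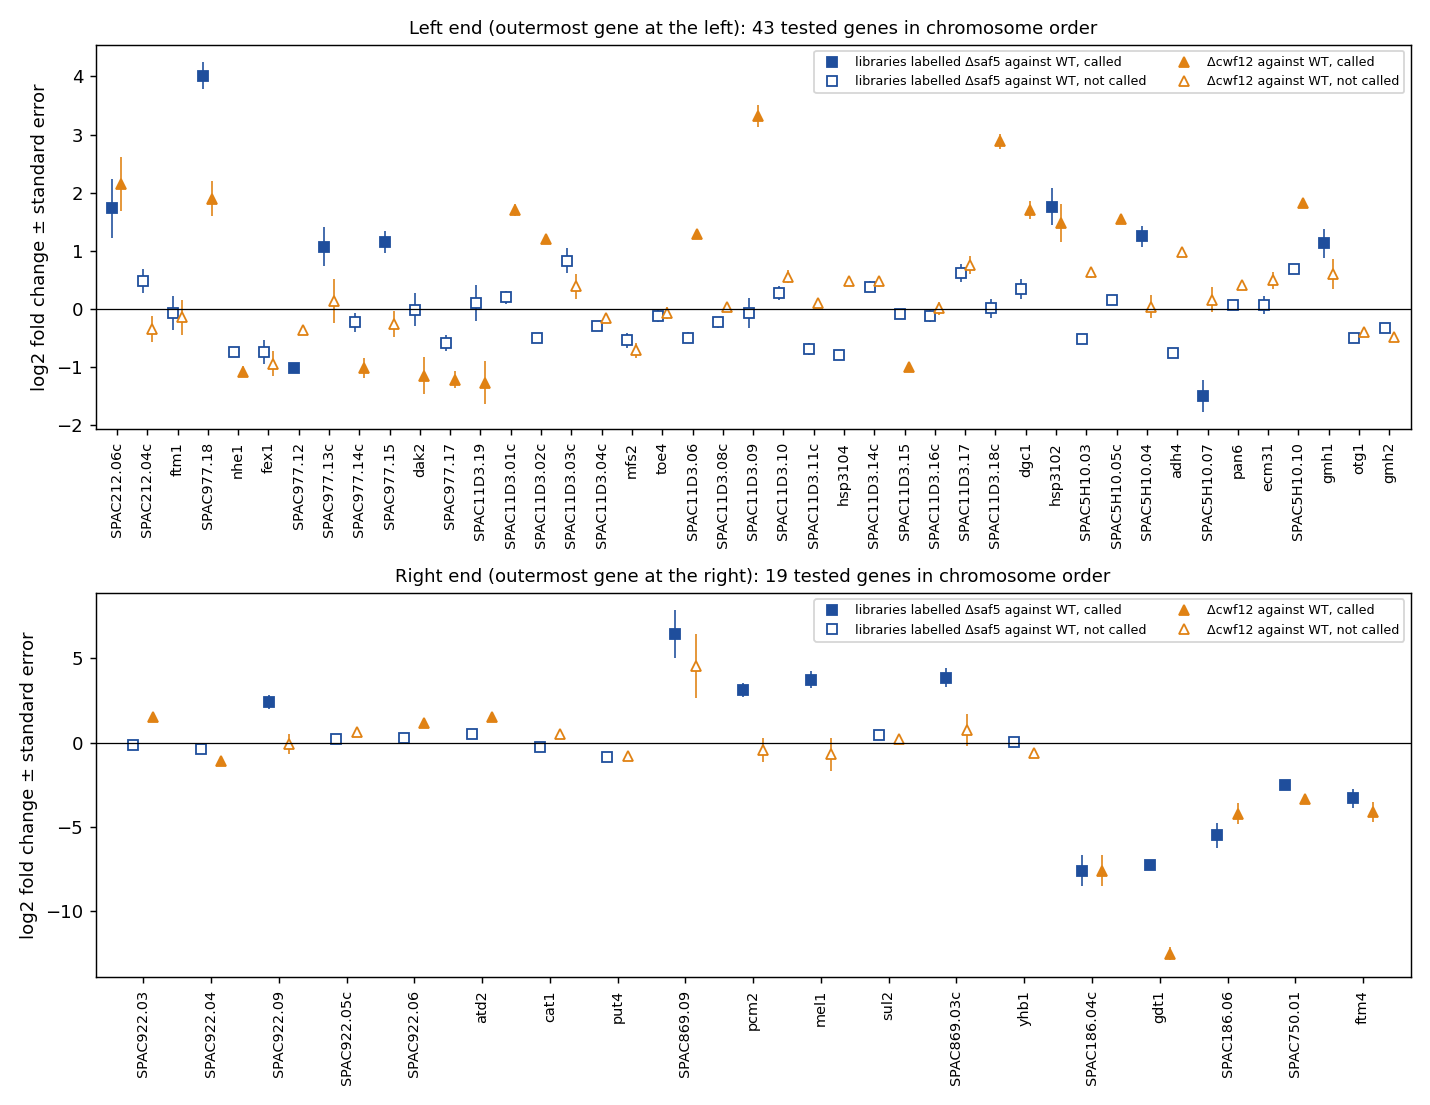
Log2 fold change against WT (y axis, ± standard error) of the 43 tested members of the left end (upper panel) and the 19 of the right end (lower panel) in chromosome order, for *Δsaf5* (squares) and *Δcwf12* (triangles). Filled symbols passed the test. At the right end the 5 outermost tested genes lie between -2.52 and -12.50, and at the left end *Δcwf12* values reach 3.32. The value of a gene with 0 counts in 1 strain depends on the prior count of the fit. The error bars come from the F statistic and can be too short for genes with few counts in a strain.

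The lowest values of all members stood at the right end. From SPAC186.04c outwards, the last 14 genes of the chromosome together held 809 and 951 counts in WT, beside 35 and 26 in *Δsaf5*, while *Δcwf12* had 16 and 16. All 5 of these genes that could be tested were lower in both deletions. Of these, SPAC186.04c, *gdt1*, SPAC186.06 and *ftm4* passed the count filter through WT only, so that they differed was fixed by the filter and their tests are a description, while SPAC750.01 passed it through more than 1 strain. The other 9 were too low to test, 4 of them at 0 in every library. The limits of this stretch were chosen after its values were seen, so its sums are a description.

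At its core stand SPAC186.04c (uncharacterized), *gdt1* (SPAC186.05c) and SPAC186.06 (annotated as an isomerase). *gdt1* is named after budding yeast Gdt1, a Golgi transporter of calcium and manganese. *gdt1* and SPAC186.06 are read in opposite directions from a shared gap of 550 bases, and SPAC186.04c follows *gdt1* on the same strand after 512 bases. Since the 3 genes moved together, the 250 bases before each annotated start are shown (ASM294v3: SPAC186.04c chrI:5539520-5539769, minus strand, *gdt1* chrI:5541482-5541731, minus strand, SPAC186.06 chrI:5541782-5542031, plus strand). Capitals mark TGACGT, the core of the site of the Atf1 and Pcr1 factors, and TATAAA, the TATA box, on either strand:
SPAC186.04c: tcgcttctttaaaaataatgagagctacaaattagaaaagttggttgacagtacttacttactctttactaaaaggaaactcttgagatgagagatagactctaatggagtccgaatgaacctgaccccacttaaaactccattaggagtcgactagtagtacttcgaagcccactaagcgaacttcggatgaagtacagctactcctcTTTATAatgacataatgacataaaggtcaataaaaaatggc
gdt1: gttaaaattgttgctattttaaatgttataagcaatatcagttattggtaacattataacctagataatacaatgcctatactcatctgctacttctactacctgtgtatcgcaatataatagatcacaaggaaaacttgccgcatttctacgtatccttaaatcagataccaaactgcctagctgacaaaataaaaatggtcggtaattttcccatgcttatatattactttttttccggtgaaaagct
SPAC186.06: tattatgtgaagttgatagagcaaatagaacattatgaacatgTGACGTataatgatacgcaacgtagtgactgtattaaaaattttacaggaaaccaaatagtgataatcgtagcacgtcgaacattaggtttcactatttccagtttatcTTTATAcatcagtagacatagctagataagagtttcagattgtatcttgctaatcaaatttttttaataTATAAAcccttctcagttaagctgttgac

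The motif GTAAACA of the forkhead factors, was in none of the 3. In the same window of 5112 coding genes TGACGT occurred in 5.52%, TATAAA in 44.4% and GTAAACA in 14.8%, and in those of the 88 members with such a window it occurred in 9.09%, 51.1% and 2.27%. None of the motifs searched was common to the 3 genes, and no other motif was looked for.

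The WT libraries held 630 and 727 reads on *gdt1*. The *Δsaf5* libraries had 6 and 3, and the *Δcwf12* libraries 0 and 0. Both deletions were far below both WT libraries, and the groups did not overlap. Over the summed counts *gdt1* was 159-fold lower in *Δsaf5* (95% exact interval 83.6 to 349, counting error only). In edgeR the gene had a log2 fold change of -7.27 there (adjusted p = 1.7e-09). Against the floor of 3 counts over the group it was at least 514-fold lower in *Δcwf12* (adjusted p = 1.0e-09). The few *Δsaf5* reads made the direct comparison pass (at least 3.23-fold higher in *Δsaf5* than in *Δcwf12*, adjusted p = 0.0099), but without *Δsaf5* replicate 1 that call was lost (adjusted p = 0.068).

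SPAC186.04c had 18 and 27 counts in WT and 0 in all 4 deletion libraries. It was at least 15.8-fold lower in *Δsaf5* and at least 17.0-fold lower in *Δcwf12* (edgeR adjusted p = 0.00010 and 6.0e-05). On SPAC186.06 there were 18 and 35 counts in WT against 0 and 1 in *Δsaf5*, with 2 and 1 in *Δcwf12*. Again no deletion library came near WT, with the gene 55.9-fold lower in *Δsaf5* (interval 9.61 to 2250) and 20.1-fold lower in *Δcwf12* (interval 6.51 to 100.4), at adjusted p = 9.5e-05 and 0.00011. The next 3 genes outwards, a hydroxyacid dehydrogenase gene, an L-lactate dehydrogenase gene and *pdc102*, which encodes a pyruvate decarboxylase, were low everywhere. Their counts were 1 and 1, 1 and 3, and 5 and 4 in WT, with 0 in all deletion libraries except 2 and 1 on *pdc102* in *Δsaf5*. None of these 3 could be tested.

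**Figure D3:**
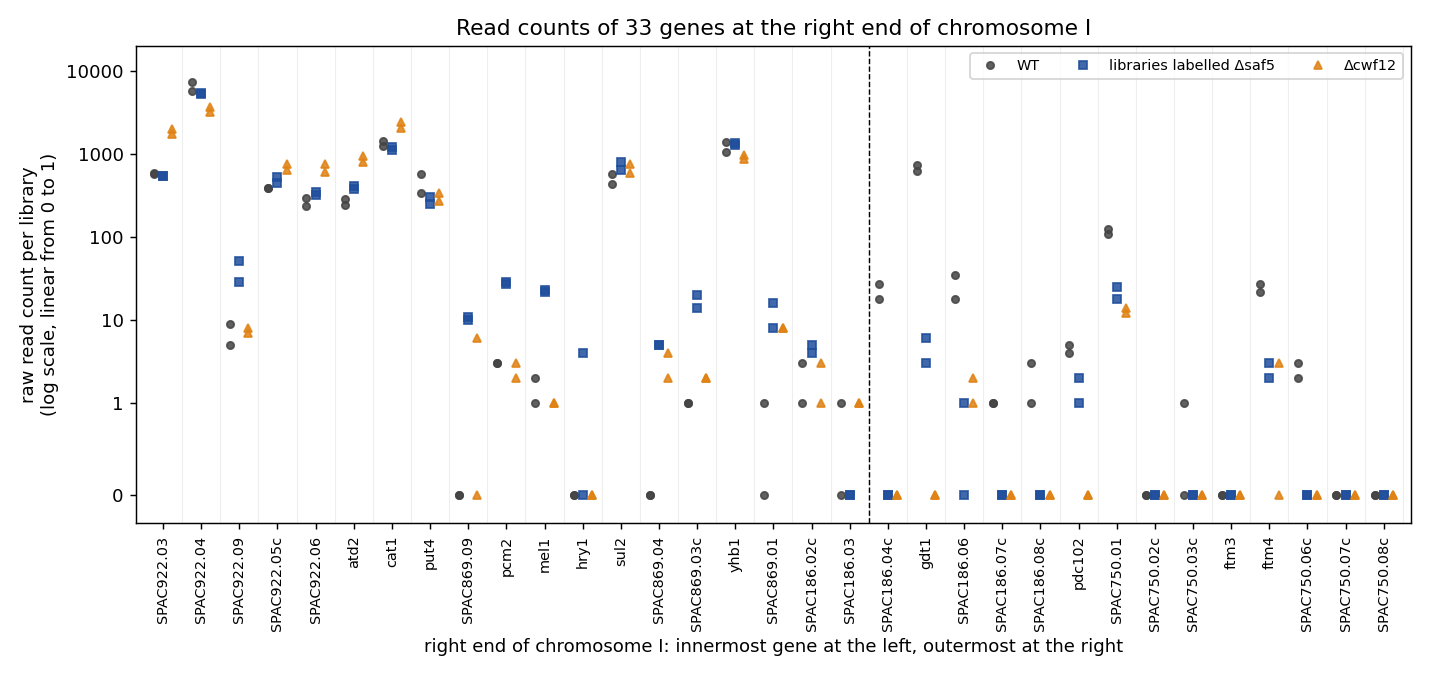
Raw read count per library (y axis, log scale, linear between 0 and 1) of the 33 members of the right end, innermost gene at the left and outermost at the right. Each point is 1 library and the dashed line stands before SPAC186.04c. To the right of it WT (circles) reaches 727 counts on *gdt1* while no deletion library holds more than 25 counts on any gene.

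Beyond *pdc102* lie the SPAC750 genes. SPAC750.01, an aldo/keto reductase gene, had 110 and 125 counts in WT, beside 25 and 18 in *Δsaf5*, while *Δcwf12* had 14 and 12. It fell in both, to -2.52 (standard error 0.23, adjusted p = 3.6e-06, edgeR) and -3.35 (0.25, adjusted p = 4.6e-07), without overlap between groups. SPAC750.01 has a copy at the left end, SPAC977.14c, with which it shares 93.7% of 978 coding bases. In 100-base stretches the copies differed at 0 to 19 bases, with a median of 5, and 193 of 879 stretches had no difference. A stretch with the median number of differences is shown to make plain what a read must contain to be assigned (ASM294v3: chrI:5556157-5556256, plus strand, and chrI:60227-60326, minus strand), with the differing bases in capitals:
SPAC750.01: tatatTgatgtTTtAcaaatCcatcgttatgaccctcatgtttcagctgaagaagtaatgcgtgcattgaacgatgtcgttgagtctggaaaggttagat
SPAC977.14c: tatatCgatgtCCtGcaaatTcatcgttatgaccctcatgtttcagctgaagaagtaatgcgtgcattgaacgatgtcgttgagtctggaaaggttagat

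The left-end copy was counted far more often, with 3371 and 5727 counts in WT against 4158 and 3970 in *Δsaf5*, with 2742 and 2340 in *Δcwf12*. It did not pass the test in *Δsaf5* (-0.24, adjusted p = 0.25, edgeR), where the groups overlapped, and it was lower in *Δcwf12* (-1.02, adjusted p = 0.00030). How many of the reads left on SPAC750.01 came from SPAC977.14c was not tested.

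*ftm4* (SPAC750.05c), a gene for a transmembrane protein of which 15.9% of the stretches are unique, had 22 and 27 counts in WT, beside 2 and 3 in *Δsaf5*, while *Δcwf12* had 0 and 3. It was 10.3-fold lower in *Δsaf5* (interval 4.14 to 33.3) and 18.6-fold lower in *Δcwf12* (interval 5.99 to 93.1), with edgeR adjusted p of 0.00037 and 0.00013. SPAC750.06c had 3 and 2 counts in WT and none in the deletions, and SPAC750.03c a single count in 1 WT library. The outermost member, SPAC750.08c, a malic enzyme gene, and SPAC750.02c, *ftm3* and SPAC750.07c were at 0 in every library. None of these 4 has a unique stretch, so their 0 counts say little of their transcripts.

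The nearest genes inwards of this stretch held too few reads in WT to show such a difference, so where it ends between SPAC186.04c and *pfl9* is not known. SPAC186.03, an L-asparaginase gene of which 44.0% is unique, had at most 1 count in any library. SPAC186.02c, a hydroxyacid dehydrogenase gene, had 3 and 1 counts in WT against 5 and 4 in *Δsaf5*, with 3 and 1 in *Δcwf12*. Neither could be tested. *pfl9*, which the rule leaves out and which lies between SPAC869 and SPAC186.02c, had 55 and 49 counts in WT, beside 98 and 74 in *Δsaf5*, while *Δcwf12* had 72 and 63. It did not fall in either deletion, with log2 fold changes of 0.65 in *Δsaf5* and 0.19 in *Δcwf12*.

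Further in, 5 low genes of SPAC869 and SPAC922 were higher in *Δsaf5*. SPAC869.09, *pcm2*, *mel1*, SPAC869.03c and SPAC922.09 passed the count filter through *Δsaf5* only and so had to differ, and their tests, those between the deletions included, describe the size of the difference and give no support for it. Neighbours in this run were SPAC869.09, *pcm2* and *mel1*. *pcm2* encodes a methyltransferase that repairs damaged aspartate residues in proteins, and *mel1* a melibiase, which releases galactose from melibiose. *mel1* had 2 and 1 counts in WT against 22 and 23 in *Δsaf5*, with 1 and 1 in *Δcwf12*, a ratio of 14.2 over WT in *Δsaf5* (interval 4.56 to 71.5) and an adjusted p of 8.6e-05 (edgeR). *pcm2* had 3 and 3 counts in WT, beside 27 and 29 in *Δsaf5*, while *Δcwf12* had 2 and 3 (ratio 8.84, interval 3.82 to 25.1, adjusted p = 9.4e-05). For both genes the *Δsaf5* libraries stood apart and WT and *Δcwf12* were alike in count. The direct comparison of the deletions in edgeR passed for both, at log2 differences of 4.43 (adjusted p = 2.6e-05) for *mel1* and 3.52 (adjusted p = 3.0e-05) for *pcm2*.

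SPAC869.09, a Con-6 family gene, was at 0 in WT, at 10 and 11 in *Δsaf5*, and at 6 and 0 in *Δcwf12*. It was at least 6.63-fold higher in *Δsaf5* by edgeR (adjusted p = 0.0031), a call that DESeq2 did not make (adjusted p = 0.10). SPAC869.03c, a urea transporter gene, had 1 and 1 counts in WT against 20 and 14 in *Δsaf5*, with 2 and 2 in *Δcwf12* (ratio to WT in *Δsaf5* 16.1, interval 4.13 to 138, adjusted p = 0.00020). The short uncharacterized gene SPAC922.09 rose from 9 and 5 counts to 51 and 29 (log2 fold change 2.42, standard error 0.40, adjusted p = 0.00040), with 8 and 7 in *Δcwf12*. The direct comparison also passed for SPAC869.03c (3.11, adjusted p = 0.00025) and SPAC922.09 (2.50, adjusted p = 0.00023). Beside them stood 3 genes too low to test. *hry1* held 4 counts in 1 *Δsaf5* library and none elsewhere, the formamidase-like gene SPAC869.04 held none in WT, while *Δsaf5* had 5 and 5 and *Δcwf12* had 4 and 2, and the amidase gene SPAC869.01 held 0 and 1, 16 and 8, and 8 and 8.

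**Figure D4:**
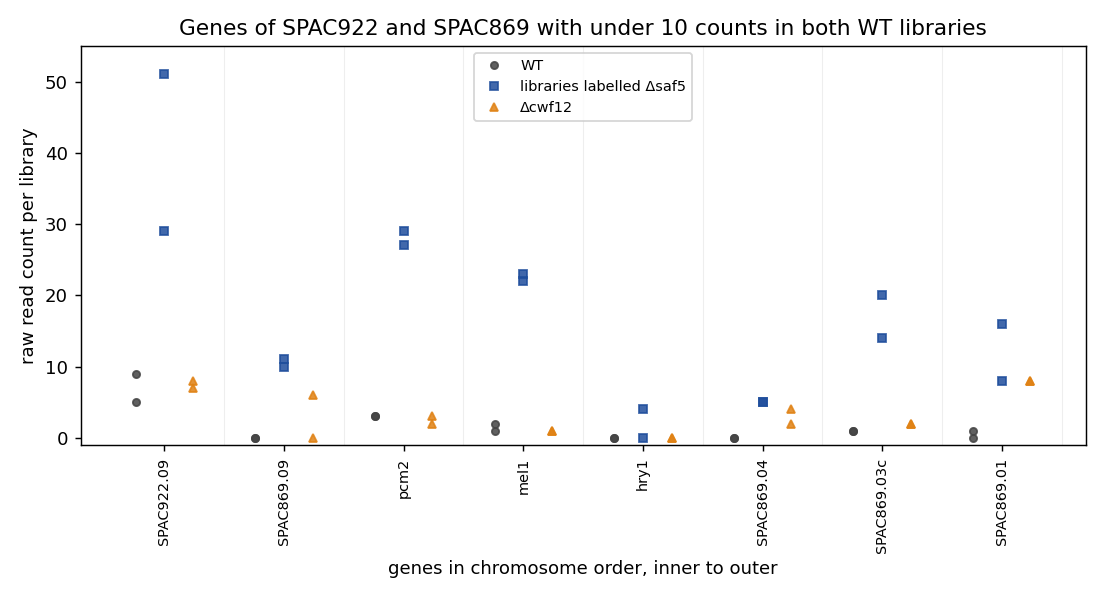
Raw read count per library (y axis, linear) of the 8 members of SPAC922 and SPAC869 with under 10 counts in both WT libraries, inner to outer. Each point is 1 library. *Δsaf5* (squares) lies above WT (circles) in both libraries for every gene but *hry1*, up to 51 counts on SPAC922.09, while *Δcwf12* (triangles) stays at or below 8 counts.

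None of the well-expressed genes between these low ones was called in *Δsaf5*. *put4* (a proline transporter), *sul2* (a sulfate transporter) and *yhb1* (which detoxifies nitric oxide) had log2 fold changes from -0.83 to 0.43 in the deletions, and none was called. Under the fold threshold, *sul2* (0.43, edgeR adjusted p = 0.0075) and *atd2* (0.51, adjusted p = 0.00092) were higher in *Δsaf5*. *put4* (-0.83, adjusted p = 0.0029) and the transporter gene *cat1* (-0.29, adjusted p = 0.0074) were lower there. *put4*, beside SPAC869.09, had 343 and 580 counts in WT, beside 299 and 250 in *Δsaf5*, while *Δcwf12* had 337 and 269. In *Δcwf12* 3 enzyme genes of SPAC922 rose. SPAC922.03, the innermost member of the right end, encodes an aminocyclopropane-carboxylate deaminase and had 571 and 582 counts in WT against 541 and 549 in *Δsaf5*, with 1992 and 1731 in *Δcwf12*. It rose in *Δcwf12* by 1.51 (standard error 0.07, adjusted p = 5.8e-09, edgeR), clear of the other libraries. *atd2*, an aldehyde dehydrogenase gene, rose by 1.53 and the reductase gene SPAC922.06 by 1.17. SPAC922.04, an uncharacterized gene, was lower in *Δcwf12* at -1.10 (-0.94 without WT replicate 2).

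At the left end the outermost 22 genes, from *tlh1* to *plb4*, held few reads. They summed to 117 and 125 counts in WT, beside 364 and 342 in *Δsaf5*, while *Δcwf12* had 190 and 157, and only 4 could be tested. *tlh1* had 0 and 0 counts in WT against 0 and 1 in *Δsaf5*, with 6 and 5 in *Δcwf12*, at least 3.23-fold higher than WT in *Δcwf12* and not tested. Its copy *tlh2*, which is no member, had 4 and 2, 22 and 19, and 225 and 228 counts. *Δcwf12* was highest for both names, and the split of reads between them is not known.

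Most of the added *Δsaf5* counts lay on 1 gene, SPAC977.18, an uncharacterized gene of which 27.2% is unique and whose copy SPBPB2B2.18 is 98.6% identical. That copy, near the right end of chromosome II, was also called higher in *Δsaf5*, both against WT and against *Δcwf12*. The split of reads between the copies is not known. SPAC977.18 had 10 and 13 counts in WT, beside 202 and 194 in *Δsaf5*, while *Δcwf12* had 57 and 41. The 3 strains did not overlap, and the order was WT, *Δcwf12*, *Δsaf5*. It rose by 4.01 in *Δsaf5* (adjusted p = 1.1e-07, edgeR) and by 1.89 in *Δcwf12* (adjusted p = 0.00021), and the deletions differed by 2.12 (adjusted p = 1.2e-06).

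SPAC212.06c, annotated as helicase-like, had 3 and 6 counts in WT against 16 and 16 in *Δsaf5*, with 19 and 27 in *Δcwf12*. It passed the count filter through the deletions and not through WT. Its tests against WT therefore describe the size of the difference and give no support for it. It rose by 1.73 (adjusted p = 0.013, edgeR) and 2.15 (adjusted p = 0.0022), and the first of these calls was lost by DESeq2 (adjusted p = 0.055), in the test against 1.5-fold (0.11) and without WT replicate 1 (0.075), *Δsaf5* replicate 1 (0.065) or *Δsaf5* replicate 2 (0.070). *ftm1* (-0.08 and -0.15) and SPAC212.04c (0.47 and -0.36) were tested and not called. Of the 18 untested genes, SPAC977.05c had 2 and 2 counts in WT, beside 0 and 1 in *Δsaf5*, while *Δcwf12* had 18 and 7, and *ftm2* had 2 and 0, 9 and 11, and 2 and 4. *ayr2* and *plb4*, both with copies identical over at least 765 bases, and the pseudogene SPAC212.10 were at 0 in every library.

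From *nhe1* inwards all 39 members of the left end were tested. Their summed level was 2823 and 3242 CPM in WT, against 2409 and 2460 in *Δsaf5*, while *Δcwf12* reached 3941 and 3862. In *Δcwf12* 9 rose and 6 were lower, and in *Δsaf5* 5 were higher and 2 lower, with median log2 fold changes of 0.15 and -0.09. The calls made 23.1% and 15.4% of the 39 in *Δcwf12*, against 7.31% and 2.64% of all genes tested, and 12.8% and 5.13% in *Δsaf5*, against 6.2% and 2.49%.

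The largest increases in *Δcwf12* were on SPAC11D3.09 and SPAC11D3.18c. SPAC11D3.09 encodes an agmatinase, which splits agmatine into putrescine and urea. It had 44 and 91 counts in WT against 66 and 69 in *Δsaf5*, with 875 and 665 in *Δcwf12*, which made 3.32 on the log2 scale (standard error 0.19, adjusted p = 4.1e-08, edgeR). SPAC11D3.18c, a carboxylic acid transporter gene, had 65 and 78 counts in WT, beside 77 and 74 in *Δsaf5*, while *Δcwf12* had 643 and 556 (2.88, standard error 0.13, adjusted p = 5.8e-09). WT and *Δsaf5* overlapped in CPM for both genes, and *Δcwf12* stood clear of them. The deletions differed by -3.40 for SPAC11D3.09 (standard error 0.19, adjusted p = 3.9e-08) and by -2.88 for SPAC11D3.18c (0.12, adjusted p = 3.7e-09), taken as *Δsaf5* minus *Δcwf12*.

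SPAC11D3.18c and its neighbours *dgc1* and *hsp3102* formed a run of 3 genes that rose in *Δcwf12*. *dgc1*, a D-glutamate cyclase gene, had 111 and 81 counts in WT against 128 and 127 in *Δsaf5*, with 400 and 309 in *Δcwf12* (1.70, standard error 0.15, adjusted p = 2.2e-06, edgeR). *hsp3102*, a glyoxylase III gene that overlaps *dgc1* on the other strand, had 9 and 17, 47 and 46, and 49 and 34, and rose in both deletions (1.75 in *Δsaf5*, adjusted p = 0.00073, and 1.48 in *Δcwf12*, adjusted p = 0.0024). It too passed the count filter through the deletions and not through WT, so these tests are a description. Whether reads of *dgc1* entered the count of *hsp3102* is not known, since the strand setting of the counting is not given in the sources used here. The next gene inwards, SPAC5H10.03, did not reach the fold threshold (0.63 in *Δcwf12*), nor did the next outwards, SPAC11D3.17, a gene for a zinc cluster transcription factor (0.75).

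Other genes that rose in *Δcwf12* were SPAC5H10.10 (1.83) and SPAC5H10.05c (1.54), both for oxidoreductases, SPAC11D3.01c (1.70), the Con-6 family gene of the left end, the transporter gene SPAC11D3.06 (1.28), and SPAC11D3.02c (1.20), an acetyltransferase gene. SPAC5H10.10 went from 554 and 670 counts in WT to 1077 and 1001 in *Δsaf5* and 2663 and 2272 in *Δcwf12*. SPAC11D3.01c had 225 and 281, 291 and 320, and 1016 and 849. SPAC11D3.02c had 1321 and 1462, 1086 and 981, and 3953 and 3315. SPAC11D3.06 had 282 and 311, 216 and 226, and 867 and 768. For each of these 5 genes both *Δcwf12* libraries lay above the other 4 in CPM. SPAC11D3.06 overlaps *toe4* on the other strand, a transcription factor gene whose own values were -0.12 in *Δsaf5* and -0.07 in *Δcwf12*.

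The calls of the 6 genes lower in *Δcwf12* needed WT replicate 2 to pass the fold threshold. A run of 3 neighbours among the members, *dak2*, SPAC977.17 and SPAC11D3.19, had log2 fold changes of -1.16, -1.22 and -1.28, although genes of other clones lie between SPAC977.17 and SPAC11D3.19. *dak2* encodes a dihydroxyacetone kinase of glycerol use and had 93 and 213 counts in WT, beside 137 and 180 in *Δsaf5*, while *Δcwf12* had 91 and 65. SPAC977.17, a gene of the family of aquaporins and glycerol channels that overlaps *dak2* on the other strand, had 375 and 529, 335 and 295, and 233 and 206. SPAC11D3.19 had 23 and 48, 41 and 39, and 15 and 18. *nhe1*, the sodium/proton antiporter gene, SPAC977.14c and the oxoprolinase gene SPAC11D3.15 were at -1.09, -1.02 and -1.01. Without WT replicate 2 all 6 kept their direction. *nhe1*, SPAC977.17 and SPAC11D3.15 stood just under the fold threshold, at -0.98, -0.98 and -0.96, and SPAC977.14c at -0.61, all with an edgeR adjusted p of 1.9e-09 or less. *dak2* at -0.46 (adjusted p = 0.083) and SPAC11D3.19 at -0.68 (adjusted p = 0.18) also lost their adjusted p. With SPAC922.04 of the right end, 7 of the 12 lower calls in *Δcwf12* were lost, and the 5 that remained were those of the right end from SPAC186.04c outwards. SPAC977.15, outwards of *dak2*, was not called in *Δcwf12* (-0.26).

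In *Δsaf5* 2 genes of the inner left end fell. SPAC5H10.07, an uncharacterized gene, fell from 55 and 50 counts to 24 and 15 (-1.502, standard error 0.27, adjusted p = 0.00074, edgeR) and had 74 and 59 in *Δcwf12*. SPAC977.12, an L-asparaginase gene of which 27.8% is unique, fell from 936 and 957 to 495 and 484 (-1.03, adjusted p = 3.1e-07, edgeR). Its copy SPBPB8B6.05c, near the left end of chromosome II, was also called lower in *Δsaf5*. How the reads were split between these copies is not known. Besides *hsp3102*, 4 genes were higher: SPAC5H10.04 (1.24), an NADPH dehydrogenase gene, SPAC977.15 (1.15), a dienelactone hydrolase gene, *gmh1* (1.12), a galactosyltransferase gene, and the pseudogene SPAC977.13c (1.07). The call of SPAC977.13c was not made by DESeq2 (adjusted p = 0.078). On the other strand SPAC5H10.04 overlaps SPAC5H10.05c and *gmh1* overlaps the gene *otg1*. Whether reads of these neighbours entered their counts is not known. *gmh1* had 26 and 23 counts in WT against 57 and 56 in *Δsaf5*, with 49 and 35 in *Δcwf12*. The innermost member *gmh2*, of the same enzyme family, was not called in either deletion (-0.34 and -0.49).

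For 6 members the deletions lay on opposite sides of WT, each at an adjusted p under 0.05 in edgeR and without a fold minimum: SPAC11D3.02c, SPAC11D3.06, *hsp3104*, SPAC5H10.03, *adh4* and *cat1*. *adh4*, which encodes a mitochondrial alcohol dehydrogenase, had 1836 and 1737 counts in WT, beside 1082 and 1122 in *Δsaf5*, while *Δcwf12* had 4423 and 3613. Its values were -0.77 and 0.98, just under the fold threshold, and the deletions differed by -1.76 (standard error 0.08, adjusted p = 3.7e-09). The other 5 differed by -0.83 for *cat1*, the arginine and lysine transporter gene, to -1.78 for SPAC11D3.06. For all 6, the *Δsaf5* libraries were lowest and the *Δcwf12* libraries highest.

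**Figure D5:**
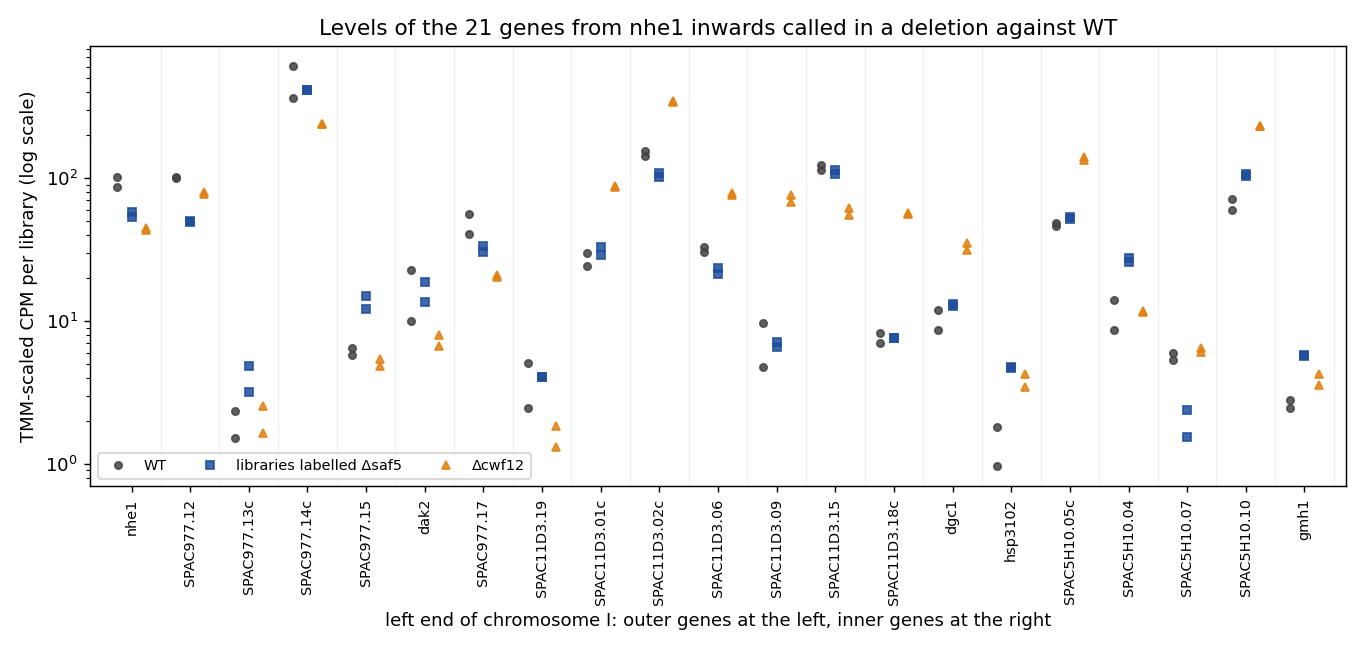
TMM-scaled CPM per library (y axis, log scale) of the 21 members from *nhe1* inwards that were called in either deletion against WT, outer genes at the left. Each point is 1 library. *Δcwf12* (triangles) stands above both other strains on SPAC11D3.09 and SPAC11D3.18c, and the WT libraries (circles) lie apart from each other on *dak2* and SPAC977.14c.

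By annotated role, 31 enzyme genes were tested, of which 6 were higher and 3 lower in *Δsaf5*, and 9 were higher and 5 lower in *Δcwf12*. These are 19.4%, 9.68%, 29.0% and 16.1% of the enzyme genes, against 19.4%, 11.3%, 22.6% and 19.4% of all members tested and 6.2%, 2.49%, 7.31% and 2.64% of all genes tested. Of 12 transporter and channel genes 1 was higher in *Δsaf5*, and 2 were higher and 2 lower in *Δcwf12*. None of the 3 transcription factor genes was called, and none of the 3 cell surface genes could be tested. Of the left-end cosmids with unique sequence throughout, SPAC11D3 had 0 of 18 genes called in *Δsaf5*. In *Δcwf12* 5 of them were higher and 2 lower (27.8% and 11.1%). SPAC5H10 had 3 of 13 higher and 1 lower in *Δsaf5* (23.1% and 7.69%), and 4 higher and 0 lower in *Δcwf12* (30.8% and 0%). The shares of all genes tested are those given above, and for as few as 18 genes 0 calls in *Δsaf5* lies near them. The difference between these cosmids was not tested.

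Other genes near chromosome ends give the setting. Of 160 noncoding RNA genes annotated among the members, 40 are in the count table and 20 were tested. Of these 20, 2 were higher and 1 lower in *Δsaf5*, and 4 were higher and 3 lower in *Δcwf12*. These are 10% and 5% in *Δsaf5* and 20% and 15% in *Δcwf12*, beside 21.1% and 4.47%, and 26.02% and 6.55%, of all 1007 noncoding genes tested. Of the outermost 71 and 34 coding genes of the ends of chromosome II, 69 were tested. Of these 69, 8 were higher and 16 lower in *Δsaf5*, and 8 were higher and 17 lower in *Δcwf12*. These are 11.6% and 23.2% in *Δsaf5* and 11.6% and 24.6% in *Δcwf12*, beside 6.2%, 2.49%, 7.31% and 2.64% of all genes tested. The lower genes lay mostly at its left end, with 14 against 2 at the right end in *Δsaf5*, and 10 against 7 in *Δcwf12*. The median log2 fold changes over the 69 were -0.13 and -0.23. Of 34 genes for telomere proteins, heterochromatin factors and RNA interference, none was called in either deletion by edgeR or by DESeq2. At an unadjusted p under 0.05 there were 17 of them in *Δsaf5* and 20 in *Δcwf12*, none past the fold threshold. At an adjusted p under 0.05 without a fold minimum there were 15 and 19, beside 50.2% and 50.4% of all genes tested.

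The genes outside the ends whose log2(CPM + 1) followed *gdt1* most closely over the 6 libraries were *rgf3*, *psu1*, *hsr1*, *rpc1* and *abp2*, with Pearson's r from 0.994 to 0.998. They share the libraries and their depth with *gdt1*, and any gene high in WT and low in both deletions scores well. *hsr1*, a transcription factor gene, had 1385 and 1340 counts in WT against 630 and 618 in *Δsaf5*, with 686 and 573 in *Δcwf12*, a far smaller difference than that of *gdt1*.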

How the data were processed

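Read counts per gene were taken as deposited: the authors sequenced paired reads of TruSeq stranded mRNA libraries, mapped them to ASM294v2 with STAR and made whole-number counts with HTSeq, without normalization. The submitters' processing notes also name Trimmomatic and DESeq2. The version of STAR, HTSeq, Trimmomatic or DESeq2, the feature type, the annotation release and the strand setting are not given in the sources used here. The deposited table also lists a length for each gene (a unit other than counts), which entered no test.

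All 7268 genes were passed to edgeR 4.0.16 (R 4.3.3). Filtering by strain with filterByExpr kept 6018, TMM gave the scaling, and 1 quasi-likelihood fit held all 6 libraries, with Benjamini-Hochberg adjustment over all genes tested. A standard error is the log2 fold change over the root of its F statistic. Where a strain has few counts and the difference is large, it can fall short of the counting error. Folds against a strain at 0 used a floor of 3 counts over its 2 libraries, and other count ratios have exact 95% intervals. Intervals and floors cover counting error only. Alternatives were RLE factors, DESeq2 1.42.0, no filter, a minimum of 10 counts in all libraries, only the strains compared, the replicate block, a test against 1.5-fold (glmTreat) and each library left out, and, chosen after seeing the data, only unique genes and only genes lacking an opposite-strand coding overlap. The procedure was tested on simulated data.

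Names, products, gene order and sequences come from the RefSeq annotation and genome of ASM294v3, which matched 6846 of the 7268 identifiers. It is not the build of the counts, so coordinates are given only for printed sequences. Copies were found with blastn 2.17.0+. The members and all lists were chosen with earlier results of these data known. Named genes were called members with both deletion libraries above or both below the WT pair (the 6 largest and smallest per comparison), runs of 3 or more called neighbours with the genes beside them, the ends of each list, and the deleted genes; other members named were chosen after their values were seen. Splicing was not analysed here.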

Additional observations from a re-analysis of the deposited data

Results flagged for a closer look

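In 6 members the effects of the deletions differed from each other when *Δsaf5* and *Δcwf12* were compared directly (edgeR, chosen as the largest differences without overlap between the libraries). As log2 differences, *Δsaf5* minus *Δcwf12*, these were 5.22 for *gdt1*, 4.43 for *mel1*, 3.52 for *pcm2*, 3.11 for SPAC869.03c, -3.4 for SPAC11D3.09 and -2.88 for SPAC11D3.18c. *mel1*, *pcm2* and SPAC869.03c passed the count filter through *Δsaf5* only and *gdt1* through WT only, and all 6 were picked as the largest differences, so these values are a description. The value for *gdt1* rests on 9 reads in *Δsaf5* against 0 in *Δcwf12* and depends on the prior count of the fit. Those for *mel1*, *pcm2* and SPAC869.03c rest on 2 to 5 reads in *Δcwf12*, and those for SPAC11D3.09 and SPAC11D3.18c on 66 or more reads in every *Δsaf5* and *Δcwf12* library.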

How the results depend on the processing

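With a minimum of 10 counts in all libraries, 5 members were higher and 3 lower in *Δsaf5* against WT, and 5 were higher in *Δsaf5* than in *Δcwf12*, against 12, 7 and 11 with the filter used. That setting removes the low genes of SPAC869 and SPAC186 by construction, and the shares of all genes under it were not taken. Among fully unique members 4 were lower in *Δsaf5* (7 in all), as SPAC750.01, *ftm4* and SPAC977.12 have copies. Leaving out 1 library at a time, the counts ran from 11 to 14 higher and 7 to 8 lower in *Δsaf5*, 15 to 18 higher and 5 to 13 lower in *Δcwf12*, and 8 to 12 higher and 14 to 15 lower in *Δsaf5* against *Δcwf12*. The 5 came without WT replicate 2. A strain left with a single library was assumed to vary like the others. The replicate numbers share no stated batch, and deviations of same-numbered libraries correlated at 0.04 (WT and *Δsaf5*), -0.01 (WT and *Δcwf12*) and -0.03 (the deletions). With a replicate block the counts were 12 and 7, 14 and 11, and 11 and 14. No direction reversed. For the 26 called genes of the naming rule, 623 values under the alternatives kept their side of the threshold and 29 lost the call. The lost calls were chiefly those of SPAC212.06c, *dak2*, SPAC11D3.19 and SPAC869.09. Called members outside that rule, such as *nhe1* and SPAC922.04, are not in this tally. Genes that the filter of a setting removed have no value in it. At this depth 32 members did not pass the count filter and could not be tested, and 11 tested members had under 10 counts in some library.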
